A study of Arabidopsis thaliana with 20 samples.

Results

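The transcripts described here were those more abundant on ribosomes of the line labelled endodermis than on ribosomes of any other tagged line of Arabidopsis thaliana root tips, in air and in hypoxia. They were read by 95 of the 22746 probe sets of an Affymetrix array (0.418%). They were selected on these same arrays: the mean of the endodermis line had to exceed the highest mean of the other 3 tagged lines by at least 0.8 log2 in air and at least 0.4 log2 in hypoxia, and the mean hypoxia change over the 4 tagged lines had to stay below 0.8 log2 in size. The thresholds were passed by 98 probe sets, and 3 of these, for AT2G39430, AT5G66390 and AT3G22620, were left out by name. The other 4 genes left out by name, GSO1, JKD, AT1G68850 and XTH16, did not pass. The excess over the highest other line is called the margin below. Because margins chose the transcripts, the margins and the hypoxia changes of the tagged lines are given as descriptions, with no test. The RNA population that the selection did not use was total RNA, and it alone carries a test of the 95. That test is not independent of the selection, which bounded the hypoxia change in the tagged lines.

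The endodermis is the cell layer that surrounds the vascular cylinder of the root. Its cells seal the walls between neighbours with the Casparian strip, a lignin band set in place by membrane scaffold proteins, dirigent-like proteins and secreted peroxidases under control of a receptor kinase pathway. Later they coat themselves with suberin, a lipid polyester whose fatty monomers are activated by acyl-CoA synthetases and whose export is linked to lipid transfer proteins. The transcription factors SCARECROW (SCR) and SHORT-ROOT (SHR) specify the layer.

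Each tagged line was Col-0 carrying His6-FLAG-tagged ribosomal protein L18B, so that ribosomes of the cells using the chosen promoter, with the transcripts they carry, could be pulled down with anti-FLAG beads. The promoters were p35S, a viral promoter active in most cells, pSCR, labelled endodermis, and pSHR and pWOL, both labelled vascular. Seedlings were 7 days old and stayed in air (control) or spent 2 h under argon (hypoxia), after which the last 1 cm of the root was taken. Total RNA came from the lysates of the p35S line. These 5 RNA populations and both treatments gave 10 groups of 2 arrays, 20 arrays in all. A promoter marks every cell that uses it, and the purified RNA of a line is a bulk sample, in which fewer cells of a type and less RNA per cell cannot be told apart. The labels do not say that the 2 replicates of a group were separate cultures, so each p-value speaks only of how far these arrays differ, a spread that may be technical.

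Values are log2 expression values, so 1 unit is a doubling. They ran from 3.35 to 14.88, and array medians lay between 6.41 and 6.55. Replicates correlated with r from 0.965 to 0.984 over all probe sets. The number of arrays, not a read depth, limits the precision. The 3′ minus 5′ difference of the GAPDH control probe sets, a measure of RNA shortening, was 4.37 ± 0.51 in the pSCR arrays (SD, n = 4), 3.68 ± 0.39 in p35S (SD, n = 4), 4.54 ± 0.15 in pSHR (SD, n = 4), 4.57 ± 0.33 in pWOL (SD, n = 4) and 4.55 ± 0.29 in total RNA (SD, n = 4). The 25S ribosomal control was 10.18 in pSCR hypoxia replicate 2 and 12.69 to 14.34 in the other arrays. Its part in the results was not tested.

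Some arrays stood apart on the selected transcripts. Between the replicates of pSCR control, the size of the difference had a median of 0.71 over the 95, against 0.23 over all probe sets. Replicate 1 was the higher in 71 of 95, against 11157 of all 22746 probe sets. In pSHR, replicate 1 was the higher in 70 of 95 in control (medians 8.29 and 7.60) and in 80 of 95 in hypoxia (medians 8.24 and 7.19). Over all probe sets the median difference between those pSHR replicates was -0.02 in control and -0.03 in hypoxia. The selection favoured high pSCR and low pSHR values, stray arrays included. Such gaps, here and in the gene groups below, are thus tied to it. The groups of genes below are therefore also described with 1 array of pSCR or pSHR left out.

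In control, the margin of pSCR over the highest other line had a median of 1.11 over the 95, with a range from 0.82 to 2.93. It was at least 2 in 7 of them, at least 1.5 in 19 and under 1 in 32. The lower of the 2 pSCR arrays lay above all 6 arrays of the other tagged lines in 91 of 95. By that measure 7.28% of all probe sets were highest in pSCR control, and nothing is read from the 91, since the same values chose the transcripts. In hypoxia the margin had a median of 0.65, with a range from 0.40 to 1.87, and it was at least 1 in 15 of 95 and under 0.5 in 18. The lower pSCR hypoxia array lay above all 6 others in 51 of 95, where 3.87% of all probe sets did. Both treatments met this in 49 of 95, where 0.778% of all probe sets did, and nothing is read from these counts either.

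**Figure D1:**
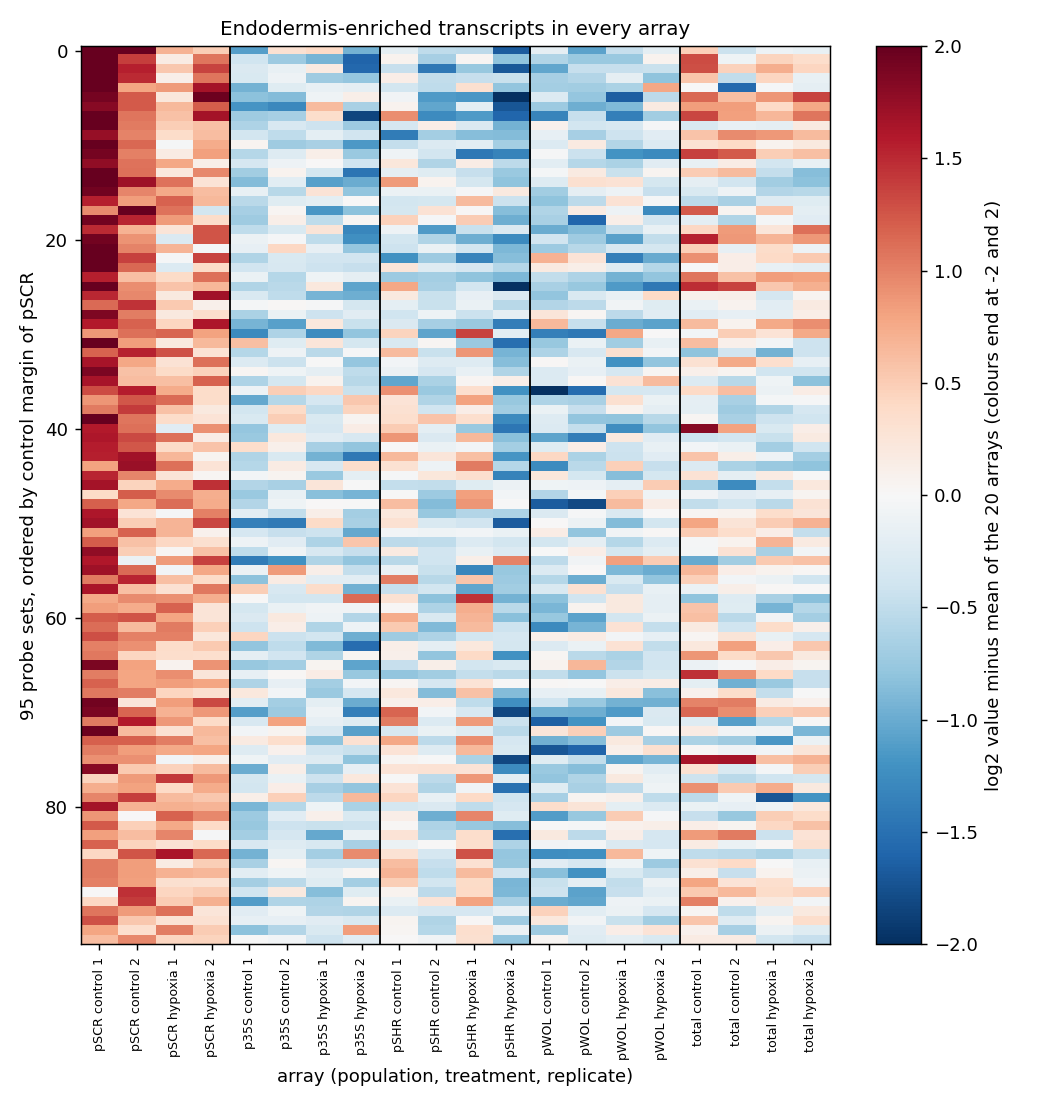
Each row is 1 of the 95 probe sets, ordered from the largest control margin at the top, and each column is 1 array, grouped by RNA population with black lines between populations. Colour gives the log2 value minus the mean of that row over the 20 arrays, with colours ending at -2 and 2. The 2 pSCR control columns are the darkest red, and pSHR replicate 1 is redder than pSHR replicate 2 in both treatments.

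Of the 95 probe sets, 42 were paired with 1 gene, 7 with several genes and 46 with none in the probe annotation used here. Among all 22746 probe sets 59.4% had 1 gene, against 44.2% of the 95. The largest control margin, 2.93, belonged to probe set 267307_at, which has no gene in that annotation and is named here after its values were seen. It read 11.74 and 10.995 in pSCR control and 7.70 to 9.11 in the other 3 lines in control. In hypoxia it read 9.50 and 9.30 in pSCR, and its margin was 0.88. The 42 named genes were sorted into groups by what their products do, after their values were seen. Genes that shape the cell wall or extracellular lipids formed the largest of these groups, with 12 members. The share of such genes among all probe sets was not counted, so nothing is read from the 12. A further 6 act in organelles or energy metabolism, 6 in regulation and signalling, 4 in translation, 3 are AAA ATPases and 1 is a transporter. The remaining 6 have other known functions, and 4 are given no role here.

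The wall and lipid genes had a median margin of 1.27 in control and 0.84 in hypoxia. AT4G13580 encodes a dirigent family protein, a class that steers the coupling of lignin and lignan precursors. It read 11.45 and 10.78 in pSCR control and 9.77 and 11.51 in pSCR hypoxia. Its control values were 8.72 and 8.67 in p35S, 9.48 and 8.41 in pSHR, and 9.27 and 8.76 in pWOL. Both pSCR control arrays were above all 6 of those, by a margin of 2.09 or 4.27-fold. In hypoxia the margin was 1.09 (2.13-fold) over p35S, which read 9.45 and 9.65. Total RNA of AT4G13580 read 10.69 and 10.15 in control, with a mean between those of pSCR and the other lines. It read 10.43 and 10.89 in hypoxia, within the range of the 2 pSCR hypoxia arrays.

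AT1G44970 encodes PER9, a class III secreted peroxidase. It read 9.95 and 8.45 in pSCR control, against 6.67 and 6.72 in p35S, 8.31 and 6.12 in pSHR, and 6.05 and 6.92 in pWOL. Replicate 1 of pSHR came within 0.14 log2 of the lower pSCR array, and the other 5 arrays were at or below 6.92. In hypoxia AT1G44970 read 7.96 and 9.03 in pSCR, 7.73 and 5.54 in p35S, 6.25 and 5.79 in pSHR, and 6.01 and 6.69 in pWOL. The margin was 1.99 in control and 1.87 in hypoxia, the latter the largest hypoxia margin of the 95.

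The fatty side of the group held lipid transfer proteins and hydrolases. AT2G48130 encodes LTPG15, a lipid transfer protein anchored to the membrane and linked to suberin. It read 12.09 and 10.85 in pSCR control, 10.61 and 9.77 in p35S, and 9.27 to 10.05 in the 4 pSHR and pWOL control arrays. The pSCR control arrays were both above the others, while in hypoxia pSCR replicate 1, at 10.21, lay below p35S replicate 1, at 10.26. The margin fell from 1.27 in control to 0.47 in hypoxia.

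AT2G18370 encodes a small secreted lipid transfer protein. It read 9.69 and 8.52 in pSCR control and 7.12 and 8.51 in pSCR hypoxia. The other lines were at 5.95 to 7.85 in control and 5.78 to 6.77 in hypoxia, so the pSCR arrays did not overlap with them in either treatment. AT5G01870, also a lipid transfer protein and singled out here after its values were seen, was unusual in having the larger margin in hypoxia, 1.66 against 0.96. It read 9.24 and 7.54 in pSCR control and 8.14 and 8.62 in pSCR hypoxia, and its highest other value was 7.44 in control and 7.12 in hypoxia. Its control margin rested on replicate 1 and was 0.11 without that array.

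AT2G18360 encodes an alpha/beta hydrolase. It read 9.24 and 8.19 in pSCR control, 7.00 and 7.78 in pSCR hypoxia, and 6.31 to 7.22 over the other lines in control. AT4G24140 encodes BDG3, a relative of BODYGUARD, an extracellular hydrolase needed for an intact cuticle. It read 10.36 and 9.65 in pSCR control, 9.05 and 8.24 in pSCR hypoxia, and 7.09 to 8.82 over the other lines in control. Both hydrolase transcripts were separated from the other lines in control, with margins of 1.72 and 1.58, and had margins of 0.78 and 0.72 in hypoxia. There AT4G24140 was not separated, as pSCR replicate 2, at 8.236, lay below pWOL replicate 1, at 8.243. AT2G17650, for an AMP-dependent synthetase of the family that activates fatty and other carboxylic acids, had margins of 1.06 and 0.53.

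Pectin-modifying enzymes were also present. AT5G20860 encodes a pectin methylesterase, and it read 7.06 and 5.77 in pSCR control against 4.84 to 5.21 over the other lines. AT2G22620 encodes a rhamnogalacturonate lyase, which cuts the backbone of a pectin. It read 8.42 and 6.69 in pSCR control, where pWOL replicate 2 read 6.73, so its groups overlapped. In hypoxia it read 7.66 and 8.18 in pSCR, 6.21 and 6.02 in p35S, 6.92 and 7.80 in pSHR, and 7.64 and 7.32 in pWOL. AT3G16370, a GDSL-type lipase or esterase, read 7.54 and 7.29 in pSCR control against 5.72 to 6.53 elsewhere, a margin of 0.98. The last gene of the group, AT3G47050 for a glycosyl hydrolase, is named after its values were seen and had margins of 0.84 and 0.90.

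**Figure D2:**
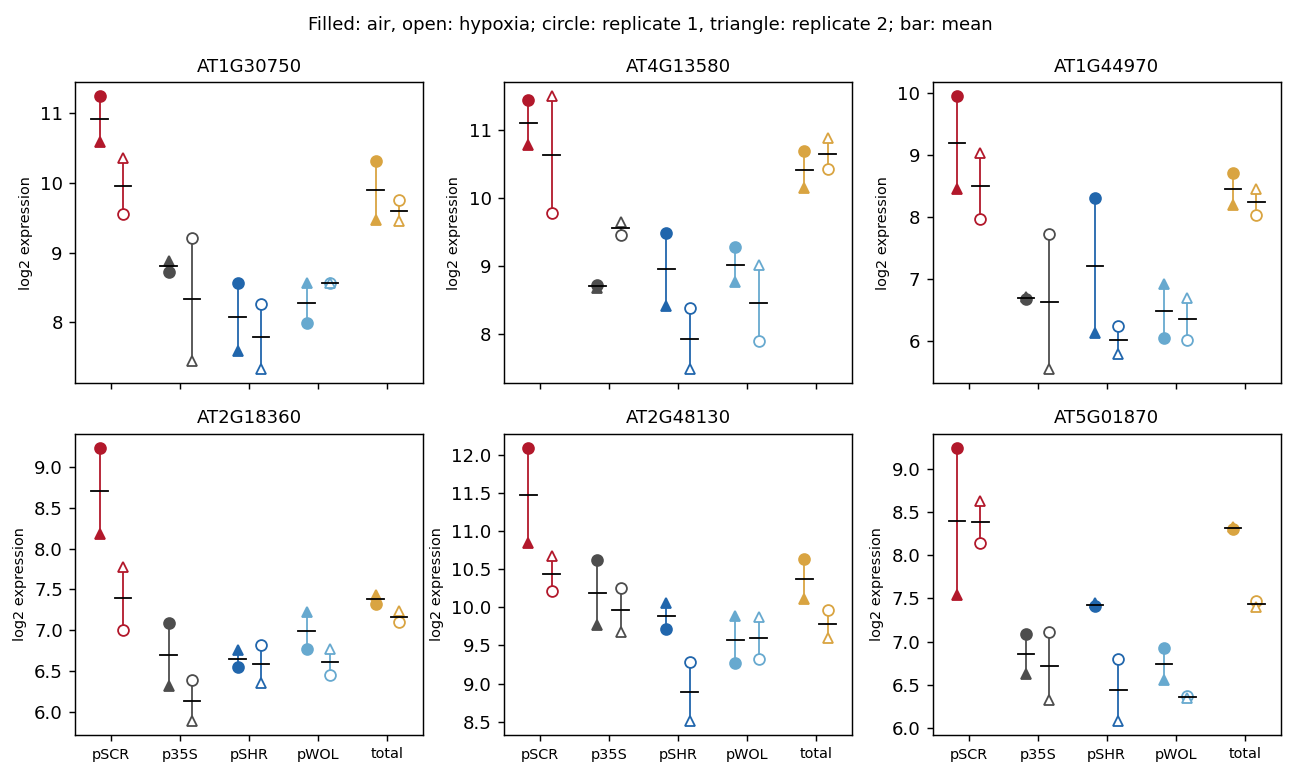
Log2 expression of 6 named genes by RNA population, with filled symbols for air, open symbols for hypoxia, circles for replicate 1, triangles for replicate 2 and a bar at the mean of 2 arrays. The pSCR means are above those of the other tagged lines in both treatments, and AT5G01870 shows the widest gap between pSCR control replicates, 9.24 and 7.54.

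All 12 wall and lipid genes read higher in pSCR control replicate 1 than in replicate 2, by a median of 1.21 log2. In pSCR hypoxia, replicate 2 was the higher in 9 of 12. Their median control margin was 0.79 without pSCR control replicate 1, with 6 of 12 still at 0.8 or more, and 1.91 without replicate 2, with 12 of 12. In hypoxia 6 of 12 stayed at 0.4 or more without pSCR replicate 2, and 11 of 12 did without replicate 1. All 12 stayed above 0 in each of these. Without either pSHR control array 12 of 12 kept a control margin of at least 0.8. Without pSHR hypoxia replicate 2, 12 of 12 kept a hypoxia margin of at least 0.4, and without replicate 1, 11 of 12 did, AT2G22620 falling to 0.12.

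The organelle and energy genes included 3 for pentatricopeptide repeat proteins, a class that processes organelle RNA. A further 2 were for subunits of 2-oxoacid dehydrogenases, and 1 was for a protein with a biotin or lipoyl attachment domain. Their median margins were 1.098 in control and 0.62 in hypoxia. AT4G35850, a pentatricopeptide repeat gene, read 10.15 and 9.74 in pSCR control, 7.51 and 8.33 in p35S, 8.69 and 8.20 in pSHR, and 7.56 and 6.63 in pWOL. In hypoxia it read 9.06 and 8.58 in pSCR and 8.73 and 7.24 in pSHR. AT3G55410 encodes the E1 subunit of 2-oxoglutarate dehydrogenase of the citric acid cycle. It read 11.24 and 10.94 in pSCR control and 10.73 and 9.77 in pSCR hypoxia, while pSHR read 10.50 and 9.32 in control and 10.27 and 8.79 in hypoxia. In control both pSHR arrays lay below both pSCR arrays for these 2 genes. In hypoxia pSHR replicate 1 lay above the lower pSCR array for both, and replicate 2 lay below it.

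AT3G02490, another pentatricopeptide repeat gene, was the exception in the group. It read 9.86 and 9.53 in pSCR control, 8.05 to 8.64 over the other lines in control, 8.68 and 8.86 in pSCR hypoxia, and 7.499 to 8.24 over the other lines in hypoxia. It was the only 1-gene member of the 3 probe sets whose lower pSCR array cleared the highest other array by the same thresholds, 0.8 and 0.4. The others were 259282_at and 264842_at. PPR596, a mitochondrial pentatricopeptide repeat protein, had margins of 1.02 and 0.60. The last 2 genes of this group, AT4G16155 for a plastid dihydrolipoyl dehydrogenase and AT1G52670 for a protein with a biotin or lipoyl attachment domain, both had a control margin of 0.85. They are named after their values were seen.

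All 6 organelle and energy genes were higher in pSHR replicate 1 than in replicate 2, by a median of 0.95 in control and 1.39 in hypoxia. Without pSHR control replicate 2, 2 of 6 kept a control margin of at least 0.8. Without pSHR hypoxia replicate 2, 1 of 6, AT3G02490, kept a hypoxia margin of at least 0.4, and 3 of 6 were above 0. Leaving out pSCR control replicate 1 left 4 of 6 at 0.8 or more, and leaving out pSCR hypoxia replicate 1 left 4 of 6 at 0.4 or more.

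**Figure D3:**
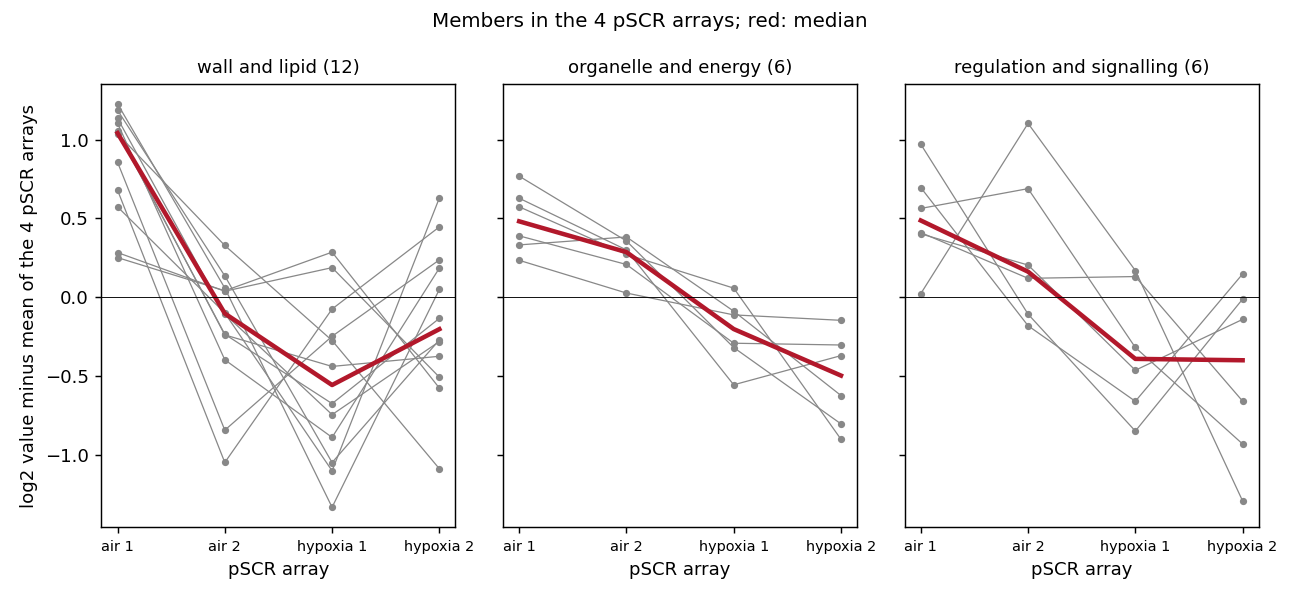
The 4 pSCR arrays on the horizontal axis against the log2 value minus the mean of the 4 pSCR arrays, with 1 grey line per gene and the median in red. The wall and lipid genes drop between the 2 air arrays by a median of 1.21, and the organelle and energy genes differ by a median of 0.26 there.

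The translation genes also leaned on pSHR replicate 2 in hypoxia. AT2G47610 encodes ribosomal protein L7a of the large subunit. It read 13.23 and 12.09 in pSCR control, 10.71 and 11.52 in p35S, 11.35 and 11.59 in pSHR, and 10.76 and 10.24 in pWOL. In hypoxia it read 11.39 and 11.29 in pSCR and 11.36 and 9.74 in pSHR, so the hypoxia arrays overlapped and the margin was 0.44. ILA encodes a GCN1-like HEAT-repeat protein that acts on translation. It read 8.16 and 9.00 in pSCR control and 9.37 and 8.90 in pSCR hypoxia, and its margin was larger in hypoxia, 1.11 against 0.86. Without pSHR hypoxia replicate 2 the hypoxia margins of the 4 translation genes ran from -0.20 to 0.27. The other members of the group, AT2G17360 for ribosomal protein S4 and AT2G40010 for the acidic stalk protein P0, had control margins of 0.89 and 0.84 and are named after their values were seen.

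Regulatory genes had a median control margin of 1.096 and a median hypoxia margin of 0.75. AT4G05170 encodes a basic helix-loop-helix transcription factor. It read 8.69 and 7.81 in pSCR control, 6.62 to 7.06 over the other lines in control, 7.33 and 8.14 in pSCR hypoxia, and 5.84 to 7.03 over the other lines in hypoxia, so it was separated in both. SLY2 encodes an F-box protein of gibberellin signalling, related to SLEEPY1. It read 7.58 and 7.29 in pSCR control, 5.58 to 6.73 in the other lines, and had margins of 1.01 and 0.73. AT4G25160, a kinase with a U-box, read 7.59 and 8.68 in pSCR control and 7.74 and 6.28 in pSCR hypoxia, and its hypoxia margin was 0.05 without replicate 1. AT5G65530, a protein kinase, had margins of 0.98 and 0.82, and AT5G12970, of the C2-domain phosphoribosyltransferase family, had 1.18 and 0.65. AT2G02780, a leucine-rich repeat kinase named after its values were seen, had 0.86 and 0.56. Of the 6 regulatory genes, 4 kept a control margin of at least 0.8 without pSCR control replicate 1, and 3 kept a hypoxia margin of at least 0.4 without pSCR hypoxia replicate 1 or without pSHR hypoxia replicate 2.

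Transport was represented by 1 gene, AT3G21670 for NPF6.4, a member of the nitrate and peptide transporter family. It read 9.05 and 8.19 in pSCR control and 6.66 to 7.29 over the other lines. In hypoxia pSCR replicate 1, at 6.77, lay below pWOL replicate 1, at 6.78, and the margin was 0.47. It was 0.14 without pSCR hypoxia replicate 2. The AAA ATPase genes AT4G36580 and AT3G15120 had control margins of 0.82 and 0.88, and AT2G18330, named after its values were seen, had 0.96. Of these 3 genes, 1 kept a control margin of at least 0.8 without pSCR control replicate 2 and 1 without pSHR control replicate 2, and 0 kept a hypoxia margin of at least 0.4 without pSHR hypoxia replicate 2. Among genes with other functions, AT5G45510, a leucine-rich repeat protein, had margins of 1.22 and 0.41, AT2G03200, an aspartyl protease, had 1.04 and 0.53, and AT4G04940, a WD40 repeat protein, had 1.04 and 0.58. ATLIG4, DNA ligase IV of end joining, had 0.97 and 0.67, AT3G49320, a metal-dependent hydrolase, had 1.07 and 0.40, and AT5G36160, a tyrosine aminotransferase named after its values were seen, had 0.88 in both. Of these 6 genes, 3 kept a control margin of at least 0.8 without pSCR control replicate 1, and 4 kept a hypoxia margin of at least 0.4 without pSHR hypoxia replicate 2.

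The genes given no role included some of the best separated. AT1G30750 read 11.25 and 10.58 in pSCR control and 7.59 to 8.88 over the other lines, a margin of 2.11 or 4.33-fold. In hypoxia it read 9.56 and 10.37 in pSCR and 7.32 to 9.20 elsewhere, a margin of 1.40 or 2.64-fold. Its pSCR arrays did not overlap with the other lines in either treatment. AT4G17215 had margins of 1.69 and 0.81, AT1G71740 had 1.43 and 0.87, and AT4G02090 had 1.30 and 1.15. All 4 stayed at or above both margin thresholds without any 1 of the pSCR or pSHR arrays. The limit on the mean hypoxia change is not part of that count. AT4G17215, with a mean change of -0.76, was chosen in 11 of the 16 settings with 1 tagged-line array left out. AT4G02090 was chosen in 15, and AT1G30750 and AT1G71740 in all 16.

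Members just inside the control threshold were AT4G36580 at 0.82, 246982_s_at at 0.83 and 259274_at at 0.84, and just outside it were 254474_at and AT2G26780, both at 0.80 after rounding, and AT1G24430 at 0.79. At the hypoxia threshold, AT3G49320 was inside at 0.40, with 260490_at and 245944_at at 0.41, and 252830_at at 0.40, AT5G58420 at 0.39 and AT1G04680 at 0.38 were outside. For the size of the mean hypoxia change, AT2G03200 at 0.79, 259592_at at 0.78 and ILA at 0.76 were inside, and 256933_at at 0.80, AT1G43020 at 0.81 and 263063_s_at at 0.81 were outside. These neighbours differed from each other by less than the replicates of pSCR control did. When each of the 16 tagged-line arrays was left out in turn, the rule gave 56 to 152 probe sets, and 15 of the 95 were chosen every time. The named genes among those 15 were AT1G30750, AT1G44970, AT1G71740, AT3G02490, AT3G16370 and AT4G05170. Without pSCR control replicate 1 the rule again gave 95 probe sets, of which 63 were among the reported ones.

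**Figure D4:**
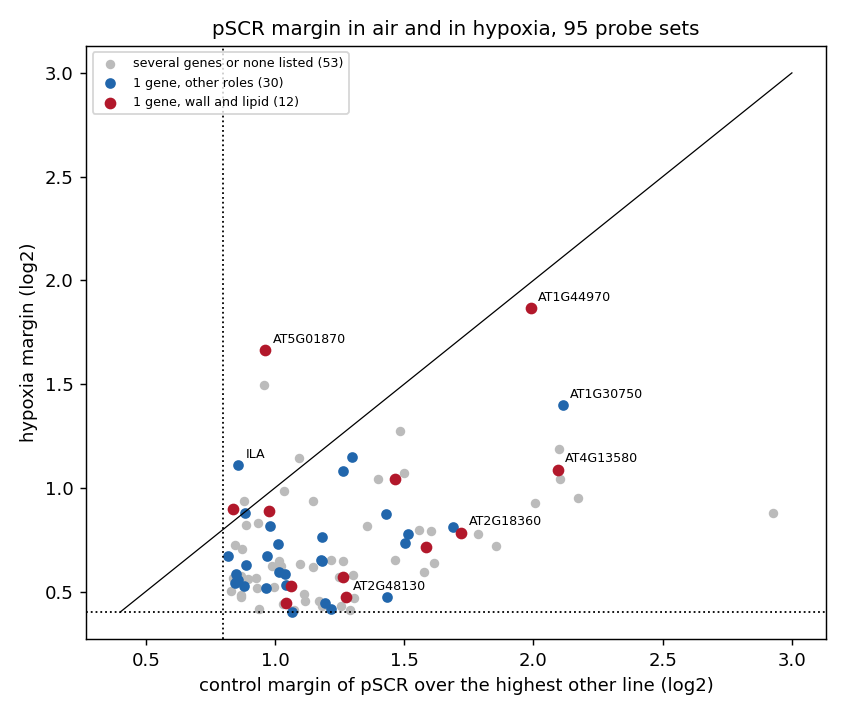
Margin of pSCR over the highest other tagged line in control (horizontal, log2) against the same in hypoxia (vertical, log2) for the 95 probe sets, coloured by annotation. Dotted lines mark the thresholds of 0.8 and 0.4 and the solid line marks equal margins, above which 6 probe sets lie.

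The line that came closest to pSCR was not the same in both treatments. In control the highest other line was pSHR for 46 of 95, p35S for 25 and pWOL for 24, while over all probe sets the shares were 27.8%, 37.3% and 34.9%. In hypoxia it was pWOL for 36, p35S for 30 and pSHR for 29, and over all probe sets the shares were 33.6%, 40.1% and 26.3%. Among the wall and lipid genes pWOL was closest in control for 6 of 12. Among the organelle and energy genes pSHR was closest for 5 of 6, and among the translation genes for 4 of 4.

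The margin was smaller in hypoxia than in control for 89 of 95, and the mean of pSCR was lower in hypoxia for 88 of 95. The median hypoxia difference was -0.60 in pSCR, with a range from -1.97 to 0.63, against -0.01 over all probe sets. In the other tagged lines the medians over the 95 were -0.06 in p35S, -0.14 in pSHR and 0.10 in pWOL. These values are tied to the selection, which set a higher minimum margin in control (0.8) than in hypoxia (0.4), and no test was made of them. The drop in pSCR was seen in 11 of 12 wall and lipid genes, with AT2G22620 at 0.37 as the exception, and in 6 of 6 organelle and energy genes. The 6 probe sets with a larger margin in hypoxia were 265645_at, 264577_at, 267377_at, AT5G01870, ILA and AT3G47050. The largest drop among named genes, -1.52, was that of NPF6.4, AT3G21670.

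**Figure D5:**
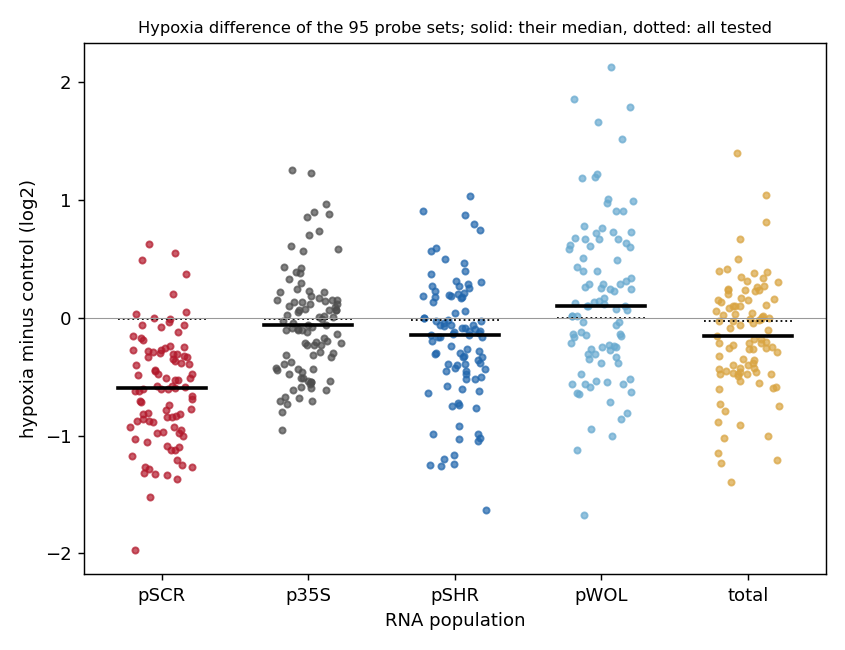
Hypoxia minus control (log2) for each of the 95 probe sets in the 5 RNA populations, with 1 point per probe set, a solid bar at their median and a dotted line at the median of all probe sets. The points of pSCR lie mostly below 0, with a median of -0.60, and those of total RNA have a median of -0.15.

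Total RNA, which the selection did not use, read below pSCR for 92 of 95 in control, with a median of -1.09 for total minus pSCR. In hypoxia it read below pSCR for 86 of 95, with a median of -0.61. Both pSCR arrays were above both total RNA arrays for 77 of 95 in control, against 24.7% of all probe sets, and for 54 of 95 in hypoxia, against 22.6%. The pSCR values in this comparison are those that chose the transcripts, so nothing is read from it. The mean of total RNA was above the highest other tagged line for 54 of 95 in control, against 29.6% of all probe sets, and for 52 of 95 in hypoxia, against 27.2%. Among the wall and lipid genes this was so for 9 of 12 in control, as with AT4G13580, and among the organelle and energy genes for 1 of 6. The selection bounded the other lines from above relative to pSCR, so these counts are descriptions too.

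Whether hypoxia changed the 95 transcripts in total RNA was tested with limma on all 22746 probe sets. With a Benjamini-Hochberg adjusted p below 0.05 as the threshold, 0 of 95 were called, against 665 of all probe sets (2.92%), of which 464 were higher and 201 lower. At an unadjusted p below 0.05 the count was 9 of 95 (9.47%), 7 lower and 2 higher, against 12.71% of all probe sets. The median difference was -0.15 over the 95 and -0.03 over all probe sets, and it was 0.0023 when total control replicate 1 was left out and -0.25 when total control replicate 2 was. A difference of at least 1 log2 was seen for 8 of 95 (8.42%), against 5.01% of all probe sets. The selection had bounded the mean change in the tagged lines, not in total RNA, at 0.8 in size. Total RNA came from the lysates of a tagged line, p35S, and probe sets with larger mean changes had been left out beforehand. A low count of calls is therefore tied to the selection, and nothing is read from 0 of 95 beside 2.92%.

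The smallest adjusted p belonged to the GDSL lipase AT3G16370. It read 7.96 and 7.41 in total control and 6.91 and 6.05 in total hypoxia, so the arrays did not overlap. The difference was -1.21 ± 0.33 (SE, limma adjusted p = 0.0774). Its adjusted p was 0.0460 without total hypoxia replicate 1 and 0.0439 without either p35S hypoxia array, and over all alternatives it ran from 0.0324 to 0.553. Arrays were left out 1 at a time, here and below. Those of the tagged lines enter this test only through the estimate of spread shared by all groups, so leaving 1 out did not change the difference. In pSCR the transcript of AT3G16370 differed by -0.32 between the treatments.

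The rhamnogalacturonate lyase AT2G22620 went the other way. It read 5.80 and 6.12 in total control and 7.33 and 7.39 in total hypoxia, a difference of 1.40 ± 0.43 (SE, limma adjusted p = 0.123). Its adjusted p was 0.0148 without either pSCR control array and ran from 0.0148 to 0.405 over the alternatives. It was also the wall and lipid gene with a higher mean in pSCR hypoxia than in pSCR control.

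Among the other extremes in total RNA, 249195_s_at, a probe set for several genes, differed by -1.40 ± 0.43 (SE, limma adjusted p = 0.125). AT3G15120, the AAA ATPase gene, read 6.53 and 6.96 in total control and 5.34 and 5.86 in total hypoxia, a difference of -1.15 ± 0.41 (SE, limma adjusted p = 0.206). The unnamed 260643_at differed by -1.23, 245979_at by -1.02, 246576_at by 1.04, 247165_at by 0.81 and 250474_at by 0.67, and AT4G02090 by 0.50, none of them called. 259592_at read 8.76 and 8.78 in total control and 7.72 and 7.82 in total hypoxia, a difference of -1.0005 ± 0.29 (SE, limma adjusted p = 0.0962). It is named for its place at the threshold on the mean change, and its adjusted p was 0.00693 without either pSHR hypoxia array.

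Some of the transcripts came from neighbouring genes. AT2G18360, the alpha/beta hydrolase, and AT2G18370, the lipid transfer protein, are next to each other in gene order, and AT2G18330, an AAA ATPase gene, is 3 places away from AT2G18360. The pattern was not shared by all genes there. AT2G18340 read 4.01 and 4.19 in pSCR control with a margin of -0.17, and AT2G18320 read 4.02 and 4.31 with a margin of 0.02, both near the low end of the scale.

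The endodermis label was checked against genes of that layer, or of pathways linked to it, that are not among the 95. They were chosen with earlier results of these data known. Not every one is particular to the layer, as with the lignin precursor genes and AT4G34600, which is made in the vascular cylinder. Lists of Casparian strip, suberin, endodermal identity, lignin precursor and root transport genes held 104 entries, of which 15 had a probe set for 1 gene. The 2 of these among the 95 are AT1G44970 and AT2G48130, which get no test, and 13 remained. SCR, SHR and the membrane scaffold protein genes of the strip were listed too but had no probe set for 1 gene, so they were not checked. AT2G39430 and AT5G66390, left out by name, are among the 13 and pass the selection thresholds on these same values, so 11 genes bear on the label. For pSCR minus the mean of the other 3 lines in control, limma called 5 of 11 higher and 1 of 11 lower, where 3.28% of all probe sets were higher and 4.11% lower (7 of 13 and 1 of 13 with the pair included). The median over the 5 Casparian strip genes among the 11 was 1.53, against -0.01 over all probe sets. The higher calls were lost without pSCR control replicate 1, a fit with 1 pSCR control array. The differences were smaller there. The median was 0.39 over the 11, against 0.53 with all arrays, and 0.99 over the 5 Casparian strip genes. With arrays centred on their medians the calls over all probe sets moved from 746 higher and 935 lower (44.4% higher) to 1035 and 710 (59.3% higher), and again 5 of 11 list genes were called higher and 1 lower.

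The receptor kinase GSO1, which oversees closure of the strip, read 11.38 and 10.82 in pSCR control and 8.53 to 10.00 over the other lines. Its difference from the mean of the other lines was 1.89 ± 0.27 (SE, limma adjusted p = 0.00178) in control and 0.49 ± 0.27 (SE, limma adjusted p = 0.575) in hypoxia. The peroxidase gene AT4G11290, for PER39, differed by 1.62 ± 0.37 (SE, limma adjusted p = 0.0200) in control and 1.67 ± 0.37 (SE, limma adjusted p = 0.0707) in hypoxia. The kinase gene AT1G61590, for SGN1, differed by 1.53 ± 0.42 (SE, limma adjusted p = 0.0436) in control and 0.73 ± 0.42 (SE, limma adjusted p = 0.604) in hypoxia. In 15 of the 26 alternatives AT1G61590 was not called in control.

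AT2G39430 and AT5G66390, the dirigent-like and peroxidase genes left out by name, differed by 3.15 and 2.67, given with no test. CCR2, a cinnamoyl-CoA reductase of lignin precursor synthesis, differed by 2.33 ± 0.43 (SE, limma adjusted p = 0.00657) in control, where pSCR read 9.63 and 7.84. In hypoxia it differed by 0.70 ± 0.43 (SE, limma adjusted p = 0.638), and its p35S mean, 8.72, was above its pSCR mean, 8.41. AT4G34600, which encodes the peptide ligand CIF2, made in the vascular cylinder, was lower in pSCR, with a difference of -1.45 ± 0.29 (SE, limma adjusted p = 0.0107). LAC16, a laccase, differed by 0.27, HCT of lignin precursor synthesis by -0.65 and AT3G13610 by 0.10, none of them called.

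The identity genes followed the label less closely. AT1G14580, for the zinc finger protein BLUEJAY, differed by 0.74 ± 0.19 (SE, limma adjusted p = 0.0307), but its pWOL control arrays read 7.66 and 7.78 beside 7.90 and 7.43 in pSCR. JKD, a zinc finger partner of SHR and SCR, differed by 0.53 (limma adjusted p = 0.493), with pWOL at 9.11 and 9.86 and pSCR at 9.08 and 8.52. AT5G41920, for SCL23, differed by 0.03. Of the suberin list only a member had a probe set for 1 gene, and of the root transport list none did. In hypoxia limma called 0 of 11 list genes higher, where 0.0967% of all probe sets were, and 0 of 11 lower, where 0.431% were. At an unadjusted p below 0.05, 1 of 11 was higher and 1 of 11 lower, and with that pair included 3 of 13 and 1 of 13 were. List genes that passed the selection, its hypoxia margin included, are not among the 11. Low counts in hypoxia are thus partly built in, and nothing is read from them.

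Markers of other cells that the pull-down could hold were read by 8 probe sets of 21 list entries. Of the 2 entries for the quiescent centre and root cap, 0 had a probe set for 1 gene, so those cells were not checked. In control 0 of 8 were called higher in pSCR, also at an unadjusted p below 0.05, and 1 was called lower, PHV of the vascular cylinder, with a difference of -0.74 ± 0.19 (SE, limma adjusted p = 0.0367). The call of PHV was lost in 8 of the 26 alternatives, with arrays centred among them. The cortex genes AT1G62500 and AT1G09750 differed by -0.11 and 0.34, the root hair genes EXPA7 and EXPA18 by 0.57 and -0.38, the vascular genes LHW and OPS by -0.44 and 0.12, and the leaf gene RCA by -0.47. AT1G09750 read 9.41 and 9.43 in pSCR control, 6.98 and 7.39 in p35S and 10.31 and 10.83 in pWOL, so a cortex marker was as high in a line labelled vascular as in the endodermis line or higher. In hypoxia 0 of 8 were called in either direction, and 1 was higher at an unadjusted p below 0.05.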

How the data were processed

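Affymetrix arrays of 22810 probe sets were deposited by the authors as 1 table of log2 expression values, summarised with RMA in the affy package per the submitters' processing notes. Their versions are not given in the sources used for this work. RNA input was 400 pg, amplified in 2 rounds, per the labels' protocols, and amplification can favour 3′ ends.

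Probe sets for array controls, 64 in number, were dropped, and no filter on low values was applied. Group means over 2 arrays gave the margins. Tests used limma 3.58.1 in R 4.3.3, with lmFit and eBayes on 10 group means over all 20 arrays (10 residual degrees of freedom, 3.30 prior) and p-values adjusted by Benjamini-Hochberg over 22746 probe sets. The fitting script was tested on simulated data.

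Probe sets were named from the platform annotation (13513 with 1 gene, 503 with several, 8730 with none), and 13436 of the first matched a RefSeq table for TAIR10.1, used for symbols and gene order. No probe set with several genes was named. The set of 95 and the gene lists were chosen with earlier results of these data known.

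Genes named were the 30 1-gene members with the largest control margin, the 3 probe sets nearest each side of each threshold, the 5 members at each end of the total RNA difference and every measured list gene. Others are said to be named after their values were seen. Alternatives were another scaling or normalization, a filter leaving out the dimmest 25%, another variance model, a replicate block, fewer arrays in the fit, other selection thresholds, and leaving out each array. Sequence features of the members were planned and not analysed here.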

Additional observations from a re-analysis of the deposited data

How the results depend on the processing

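With 2 arrays a group, the set depends on single arrays. The rule gave 109 probe sets with arrays centred on their medians (94 shared with the 95), 96 after quantile normalization (89 shared) and 94 without the dimmest 25%. It gave 63 at a control margin of at least 1. It gave 3 when the lower pSCR array had to clear the highest other array by 0.8 in control and 0.4 in hypoxia. Leaving out 1 array gave 56 (without pSHR hypoxia replicate 2) to 152 (without pSCR hypoxia replicate 2), and 63 without pSHR control replicate 2. In total RNA, 1 member was called higher from the compared arrays alone, AT2G22620 (adjusted p = 0.0349), and 1 lower with the replicate block, AT3G16370 (adjusted p = 0.0324), and leaving out 1 array gave 0 to 1 in each direction. The replicate block changed no call in control of the list genes and markers, AT2G39430 and AT5G66390 included (7 higher and 2 lower). Deviations of same-numbered replicates correlated at r = 0.25 between total control and total hypoxia and from -0.33 to 0.29 over all pairs of groups, so the numbers were not taken as pairs. Of the list genes and markers in control, those called lower numbered 1 from the compared arrays alone, 1 with arrays centred, 1 with trended robust moderation and 0 to 3 without 1 array, and those called higher 0 to 7. In hypoxia 2 were called higher without the dimmest 25% and 2 with trended robust moderation, AT4G11290 and AT5G66390, and 0 to 2 without 1 array. Signs turned for uncalled values without 1 array. 250474_at ran from -0.11 to 1.45 in total RNA (below 0 without total control replicate 2). In control LAC16 ran from -0.069 to 0.60 and OPS from -0.44 to 0.67 (both below 0 without pSCR control replicate 1), AT5G41920 from -0.27 to 0.33 (-0.052, -0.036 and -0.029 without p35S control replicate 2, pSHR control replicate 1 and pWOL control replicate 2) and AT3G13610 from -0.18 to 0.39 (-0.028 without pSHR control replicate 2). In hypoxia AT1G14580 ran from -0.13 to 0.017, with 3 values above 0. The cause was not tested. Over the single genes named, 34 values in control lost a call and 3 gained one, 8 gained one in hypoxia and 7 in total RNA.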
